A study of Mus musculus with 28 samples.

Results

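The blood lineage genes described here, 10 of the 19421 genes in the deposited table, were followed through 7 mouse embryonic stem cell lines that express Atoh1, Pou4f3 and Gfi1 alone or in combination. They were chosen by name as members of the blood programme: the transcription factors Gata1, Gata2, Tal1, Klf1, Runx1 and Spi1, the surface integrin Itga2b, the haem enzyme Alas2 and the embryonic globins Hba-x and Hbb-bh1. Each line carried its transgenes at a doxycycline (Dox) inducible locus of A2loxCre cells, in a cassette that ends in the fluorescent protein mVenus. The lines were iAtoh1, iPou4f3, iP+A (Pou4f3 and Atoh1), iGfi1, iG+A (Gfi1 and Atoh1), iG+P (Gfi1 and Pou4f3) and iGPA (all 3 factors). Cells were differentiated as embryoid bodies (EBs), free-floating aggregates in which cell types of all germ layers arise, without LIF and after removal of the feeder fibroblasts. Dox was given at 2 µg/ml for 48 h from day 4, and mVenus+ cells were sorted at day 6. The No Dox controls were whole, unsorted EBs of the same line at day 6. Dox and sorting therefore cannot be told apart in any comparison of Dox with No Dox. Every one of the 14 groups had 2 libraries, 28 in all, described by the submitters as different clones of the same line.

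Embryonic blood arises from mesoderm. Tal1, with Gata2, Lmo2 and Runx1, specifies blood progenitors and blood-forming endothelium, and Gata1 with Klf1 then drives red cell genes such as Alas2 and the globins. Spi1 (PU.1) directs myeloid cells and opposes Gata1, and Itga2b (CD41) marks early blood progenitors and megakaryocytes, the platelet-forming cells. Gfi1, studied here as one of 3 hair cell factors, is a zinc finger repressor that also acts in blood stem cells, in myeloid cells and, with its relative Gfi1b, in the transition from endothelium to blood. Atoh1 and Pou4f3 are factors of sensory hair cells and neurons and have no established role in blood.

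The promoters of the members that moved together with Dox are shown first, since Klf1, Alas2 and Hba-x passed the threshold in the same 4 lines and Gata1 in 2 of these. They are RefSeq sequences of GRCm38.p6, each 300 bases long, from 250 bases before to 50 after the start. Of the 10 members, 8 matched the table of promoters, with 11 entries, and Spi1 and Hbb-bh1 did not. Capitals mark matches to the GATA motif (AGATAA or TGATAA, or TTATCT and TTATCA on the other strand) and to the CACCC box that Klf1 family proteins bind (CACCC, or GGGTG on the other strand).
Gata1 (chrX:7967861-7968160, minus strand): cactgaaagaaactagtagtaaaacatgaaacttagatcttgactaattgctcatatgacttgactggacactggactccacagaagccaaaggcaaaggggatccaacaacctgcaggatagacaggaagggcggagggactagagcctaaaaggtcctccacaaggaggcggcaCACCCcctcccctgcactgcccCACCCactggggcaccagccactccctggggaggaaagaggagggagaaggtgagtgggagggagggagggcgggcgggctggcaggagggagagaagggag
Klf1 (chr8:84901732-84902031, plus strand): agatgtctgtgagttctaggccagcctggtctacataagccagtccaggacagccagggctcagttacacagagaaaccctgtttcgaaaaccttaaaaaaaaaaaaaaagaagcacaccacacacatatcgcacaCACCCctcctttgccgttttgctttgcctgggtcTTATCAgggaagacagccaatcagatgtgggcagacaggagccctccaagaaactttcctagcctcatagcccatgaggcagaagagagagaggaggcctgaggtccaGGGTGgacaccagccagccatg
Alas2 (chrX:150547167-150547466, plus strand): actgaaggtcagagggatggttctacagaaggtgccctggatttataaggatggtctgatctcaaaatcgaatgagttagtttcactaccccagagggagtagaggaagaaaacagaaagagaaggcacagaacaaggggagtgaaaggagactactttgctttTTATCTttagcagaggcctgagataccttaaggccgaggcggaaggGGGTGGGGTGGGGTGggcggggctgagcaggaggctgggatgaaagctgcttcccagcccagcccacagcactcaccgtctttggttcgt
Hba-x (chr11:32276350-32276649, plus strand): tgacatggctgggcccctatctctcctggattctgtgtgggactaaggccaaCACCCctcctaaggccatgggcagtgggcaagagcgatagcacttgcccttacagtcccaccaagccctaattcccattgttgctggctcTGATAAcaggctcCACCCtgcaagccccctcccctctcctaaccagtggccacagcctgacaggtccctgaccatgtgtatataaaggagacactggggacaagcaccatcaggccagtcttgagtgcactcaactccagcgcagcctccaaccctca
The windows of Klf1, Alas2 and Hba-x each held 1 GATA match and 2, 3 and 2 CACCC matches, while that of Gata1 held 2 CACCC matches and no GATA match. A GATA match was present in 4 of the 11 entries of the members, against 18.6% of all 32851 promoters of this length. A CACCC match was present in 8 of the 11 entries, against 57.5% of all promoters. The core AAATCA of the site bound by Gfi1 (TGATTT on the other strand) was in 0 of the 11 entries, against 14% of all promoters. The E-box CAGNTG, searched on both strands, a kind of site bound by Atoh1 and by Tal1, was in 5 of the 11 entries, against 51.4% of all promoters. These matches are descriptions of the windows and no binding was measured.

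The transgenes followed the labels. Gfi1 lay between 27.3 and 119 normalised counts in the 20 libraries without induced Gfi1, and between 8119 and 12487 in the 8 Dox libraries of the lines that carry it. Atoh1 reached 12816 to 21242 with Dox in its 4 lines and 120 at most elsewhere. Pou4f3 reached 4694 and 5381 in iPou4f3 and 10868 to 19883 in its other 3 lines, so iPou4f3 cells had less of it than the combined lines. These values are the authors' normalised counts, recovered from the deposited log2 values, and the log2 differences below were computed after adding 1. A gene is called where limma gave an adjusted p under 0.05 and the log2 difference was 1.5 or more in either direction, with adjustment across all 16837 genes kept, and errors after ± are standard errors of the fit. All 10 members passed the filter on low values. Depth, estimated from the smallest steps of the values, was 30.3 to 48 M reads per library.

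In untreated EBs every member was present in all 14 libraries, and the lines differed widely before any factor was induced. Gata1, on the minus strand of chrX:7536386-7555197 (NCBIM37), ran from 1285 normalised counts in an iP+A library to 5513 in an iPou4f3 library. Hba-x, the zeta-type globin at chr11:32176400-32178116, ran from 13685 in iG+P to 142549 in iG+A, a 10.4-fold range. Hbb-bh1, a beta-type globin of the embryonic cluster at chr7:110990150-110991678, ran from 45574 to 319799. The narrowest range was that of Gata2, from 592 to 1199. The mean of the 4 lines with Gfi1 did not differ past the threshold from that of the 3 lines without in any member by limma, with differences from 0.09 ± 0.28 for Hba-x to 0.41 ± 0.15 for Tal1 on the log2 scale (adjusted p 0.207 or higher). Over all genes 0.0119% were called higher and 0.0178% lower in untreated lines with Gfi1. At an unadjusted p under 0.05, 2 of the 10 differed, Gata1 and Tal1. Gfi1 itself was 0.87 ± 0.13 higher in the untreated lines that carry it (limma, adjusted p = 0.0118), below the fold threshold. All 10 differences were above 0, and the Dox effects below are differences from these unequal starting levels. In bulk RNA, fewer blood cells and less of an RNA in each blood cell cannot be told apart.

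**Figure D1:**
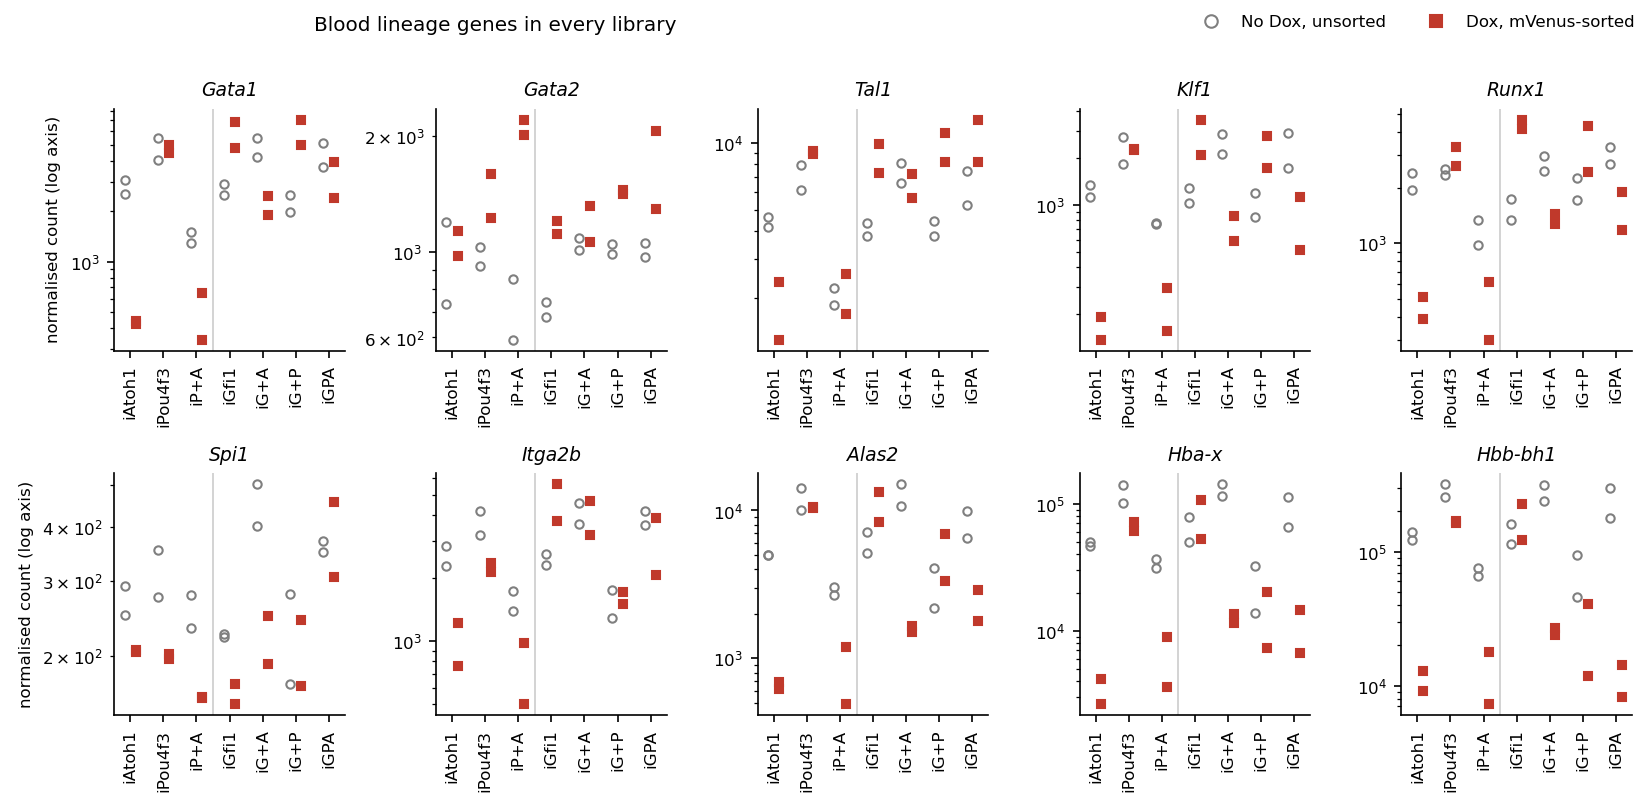
Normalised counts (log axis) of the 10 blood lineage genes in each of the 28 libraries, by line, with untreated unsorted EBs as open circles and Dox-treated sorted cells as filled squares; lines right of the grey bar carry Gfi1. With Dox, Hba-x lies between 2656 and 14461 in the 8 libraries with induced Atoh1 and between 7283 and 107316 in the 6 without, and the untreated libraries of different lines are far apart.

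With Atoh1 alone the red cell members fell. In iAtoh1, 6 of 10 members were called lower and 0 higher, against 2.52% and 2.89% of all genes tested. Hba-x was 49996 and 46228 in the untreated libraries and 4162 and 2656 with Dox, a fall by 3.85 ± 0.52 on the log2 scale (adjusted p = 4e-05). Gata1, the master regulator of red cells and megakaryocytes, was 2524 and 3081 without Dox and 424 and 442 with it, and fell by 2.69 ± 0.29 (adjusted p = 3.17e-06). In both genes the Dox libraries lay far below the controls, without overlap. Klf1, the red cell factor at chr8:87425827-87429194, went from 1128 and 1338 to 137 and 191, and fell by 2.92 ± 0.38. Alas2, which makes the first intermediate of haem in red cells (chrX:146981918-147005181), fell by 2.93 ± 0.40, Hbb-bh1 by 3.57 ± 0.49 and Runx1 by 2.27 ± 0.31. The differences of Tal1 (-1.33 ± 0.28) and Itga2b (-1.40 ± 0.32) were under the fold threshold, although both had an adjusted p under 0.05. Both were called when the iAtoh1 Dox replicate 2 was left out (-1.76 and -1.74), and Itga2b also without the No Dox replicate 1 (-1.55). Gata2 and Spi1 differed by 0.17 ± 0.22 and -0.39 ± 0.24, neither past the threshold. Markers of other cell types moved too. In iAtoh1 3 of 7 fibroblast markers (median -1.60), 3 of 8 endoderm markers (median -1.31) and 2 of 11 endothelial markers were called lower and 1 of 6 cardiac markers higher, and their part in the result was not tested.

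With Pou4f3 alone 0 members were called in either direction by limma, against 1.47% of all genes called higher and 0.606% lower. At an unadjusted p under 0.05, 3 of the 10 differed in iPou4f3. Gata1 was 5513 and 4046 without Dox and 4467 and 5010 with it, a log2 difference of 0.00 ± 0.29 whose 95% interval ran from -0.60 to 0.60. Klf1 was likewise close to its control, at 0.02 ± 0.38. The globins lay lower in both Dox libraries than in both controls, Hba-x at 71950 and 60602 against 141253 and 101646, but the differences of -0.86 ± 0.52 and -0.77 ± 0.49 did not pass.

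In iP+A cells 5 members were called lower and 1 higher, against 2.58% and 4.7% of all genes. Gata1 was 1285 and 1494 in the controls and 341 and 649 with Dox, and fell by 1.56 ± 0.29. Klf1 fell by 1.84 ± 0.38, Alas2 by 1.89 ± 0.40, Hba-x by 2.57 ± 0.52 and Hbb-bh1 by 2.63 ± 0.49. Gata2 (chr6:88143885-88157024), which acts in blood stem and progenitor cells and also in developing neurons, was the member that rose, from 592 and 850 to 2210 and 2013 (1.57 ± 0.22, adjusted p = 3.85e-05). Tal1 differed by 0.04 ± 0.28. The iP+A calls leaned on single libraries: without Dox replicate 1, 2 members were called lower, with Gata1 at -1.09, Klf1 at -1.38 and Alas2 at -1.25. Gata1 also missed the fold threshold without No Dox replicate 2 (-1.45), Gata2 without No Dox replicate 1 (1.31), while Runx1 was called lower without No Dox replicate 1 (-1.63) and Runx1 and Itga2b without Dox replicate 2 (-1.92 and -1.63). Runx1 was also called with quantile normalization (-1.53) and, with Itga2b, against all untreated libraries together (-2.23 and -1.90). Alas2 had an adjusted p of 0.059 in a limma fit of the iP+A libraries alone, and Gata2 was at 1.22 against all untreated libraries together. Of other cell types' markers, 4 of 5 pluripotency markers were lower in iP+A (median -2.41). Of 7 fibroblast markers 1 was lower and 1 higher, and 1 of 8 endoderm and 1 of 11 endothelial markers were lower. Of 6 early mesoderm markers 0 were called (median -1.97), and the part of these markers was not tested.

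With Gfi1 alone Runx1 rose. In iGfi1 cells 1 member was called higher and 0 lower, against 2.15% and 2.67% of all genes, and 9 of the 10 differences were above 0, Spi1 (-0.45 ± 0.24) being the exception. Runx1, the factor needed for the emergence of definitive blood (minus strand of chr16:92601712-92826311), rose from 1334 and 1734 to 4139 and 4648 (1.53 ± 0.31, adjusted p = 0.00137). Gata1 was 2908 and 2514 without Dox and 6813 and 4798 with it, a difference of 1.08 ± 0.29 that lay under the fold threshold with an adjusted p of 0.00957. Tal1 (1.07 ± 0.28), Klf1 (1.25 ± 0.38), Itga2b (0.90 ± 0.32) and Gata2 (0.71 ± 0.22) also had an adjusted p under 0.05 without reaching the fold threshold. The Dox libraries lay above both controls in these 5 genes. Hba-x, at 107316 and 52294 against 77923 and 50171, overlapped with its controls, and so did Hbb-bh1. The call of Runx1 was lost without No Dox replicate 1 (1.34) or Dox replicate 2 (1.44) and against all untreated libraries together (1.11), and Klf1 was called without Dox replicate 2 (1.62). Of other cell types' markers, 2 of 7 fibroblast, 2 of 8 endoderm and 2 of 6 cardiac markers were lower in iGfi1. In iG+P 3 of each of these lists were lower, 1 cardiac marker was higher, and 2 of 11 endothelial markers were lower (median -1.12). Of 6 early mesoderm and 5 pluripotency markers 1 each was lower in iG+P. The part of these markers in the results was not tested.

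When Gfi1 was combined with Atoh1, Klf1, Alas2 and both globins fell, and Gata1 and Runx1 stayed under the fold threshold. In iG+A, 4 members were called lower and 0 higher, against 4.95% and 7.35% of all genes. Hba-x went from 142549 and 114818 to 11443 and 13612, a fall by 3.36 ± 0.52. Hbb-bh1 fell by 3.44 ± 0.49, Alas2 by 3.01 ± 0.40 and Klf1 by 1.80 ± 0.38, and Klf1 was at -1.03 against all untreated libraries together. Gata1 was 5460 and 4220 without Dox and 1895 and 2463 with it (-1.15 ± 0.29), Runx1 differed by -0.99 ± 0.31 and Spi1 by -1.04 ± 0.24, all under the fold threshold with an adjusted p under 0.05. Tal1 (5659 and 7205 with Dox, 8157 and 6568 without) and Itga2b (3202 and 4658 with Dox, 4580 and 3621 without) overlapped with their controls, at -0.20 ± 0.28 and -0.08 ± 0.32.

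The same 4 members were called lower in iGPA, with 0 higher, against 5.31% and 8.65% of all genes. Hbb-bh1 showed the greatest difference of any member in any line, from 179528 and 299066 to 8177 and 14183, a fall by 4.43 ± 0.49 (adjusted p = 9.35e-07). Hba-x fell by 3.13 ± 0.52, Alas2 by 1.81 ± 0.40 and Klf1 by 1.55 ± 0.38. Tal1 (chr4:114729031-114744360), at 5230 and 7456 in the controls, was 8235 and 12734 with Dox, above both, with a difference of 0.71 ± 0.28 under the fold threshold. Runx1 (-0.99 ± 0.31) and Gata2 (0.69 ± 0.22) also had an adjusted p under 0.05 without reaching the fold threshold. Gata1 overlapped with its controls, at 2410 and 3944 against 3684 and 5140 (-0.50 ± 0.29). Without Dox replicate 1, Klf1 (-0.99) and Alas2 (-1.46) were no longer called, Klf1 was at -1.17 without No Dox replicate 2, and against all untreated libraries together they were at -0.92 and -1.42. Of the 7 fibroblast markers 5 were called lower in iG+A, and 6 lower and 1 higher in iGPA. Of the 8 endoderm markers 3 were lower in each line, and of the 5 pluripotency markers 3 in each (4 in iP+A). Of the 6 cardiac markers 1 was higher and 1 lower in each line, and of the 11 endothelial markers 1 was higher in iG+A and 1 higher and 1 lower in iGPA. Of the 6 early mesoderm markers 1 was lower in iGPA. The part of these markers in the results was not tested.

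In iG+P 1 member was called lower and 0 higher, against 5.36% and 5.16% of all genes, which is near the background. Gata1 was 1975 and 2498 in the controls and 4998 and 7040 with Dox, a difference of 1.42 ± 0.29 (adjusted p = 0.000798) just under the fold threshold. Tal1, at 3792 and 4431 without Dox, was 8204 and 11078 with it (1.22 ± 0.28), and Klf1 differed by 1.13 ± 0.38. Dox and control libraries did not overlap in any of these 3 genes. The other regulators were at 0.71 ± 0.31 (Runx1), 0.50 ± 0.22 (Gata2) and -0.11 ± 0.24 (Spi1), with adjusted p-values from 0.0814 to 0.767 by limma. Hbb-bh1 went from 45574 and 93797 to 11770 and 40645 and was the 1 member called, lower by 1.58 ± 0.49 (adjusted p = 0.0185). That call was lost without No Dox replicate 2 (-1.06) or Dox replicate 1 (-0.69), with quantile normalization (-1.41), and in a limma fit of the iG+P libraries alone (adjusted p = 0.136). Gata1 was called without the same libraries, at 1.59 and 1.66. Against all untreated libraries together Hba-x was called lower too, at -2.31.

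**Figure D2:**
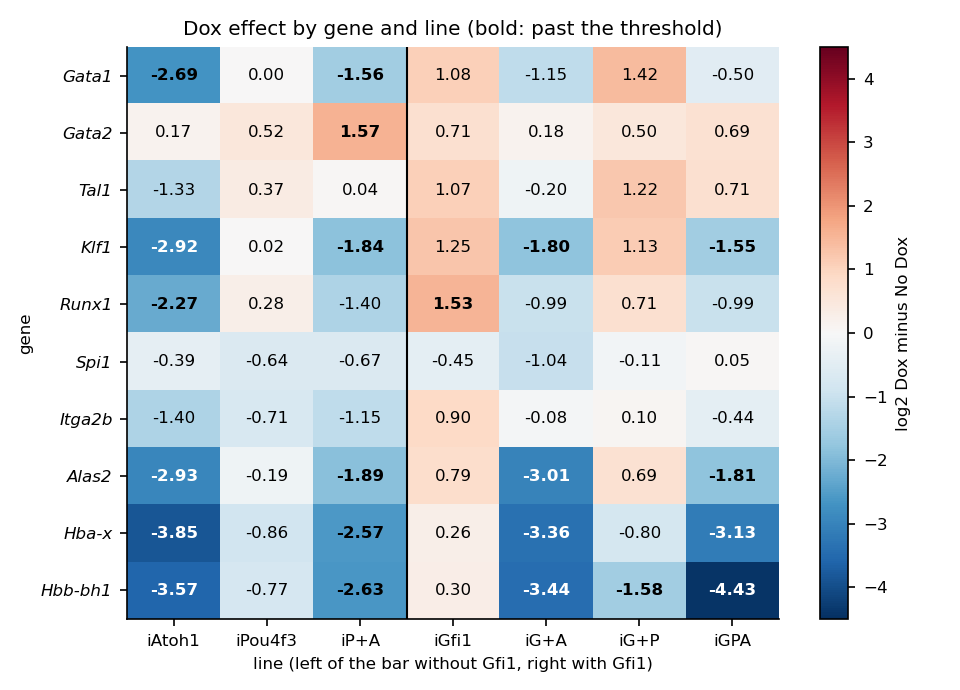
Log2 difference, Dox minus No Dox, of the 10 genes (rows) in the 7 lines (columns), with the value in each cell, bold where it is past the threshold; colours run from blue (lower with Dox) to red (higher). Klf1, Alas2, Hba-x and Hbb-bh1 are lower in iAtoh1, iP+A, iG+A and iGPA, and the Gata1 row runs from -2.69 in iAtoh1 to 1.42 in iG+P.

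The comparison of lines with and without Gfi1 asked whether this factor, itself a blood regulator, shifts the response of the members. Its sets of lines are not balanced, since iGfi1 has no partner line. Atoh1 and Pou4f3 are each carried by a smaller share of the lines with Gfi1 than of those without. A difference between the sets can therefore hold part of an Atoh1 or Pou4f3 difference. Over the 4 lines with Gfi1 against the 3 without, 1 of 10 members, Gata1, was called higher and 0 lower, against 3.88% and 2.96% of all genes. The mean Dox effect on Gata1 was 0.21 with Gfi1 and -1.41 without, a difference of 1.63 ± 0.22 (adjusted p = 1.43e-05), and it was 1.47, under the fold threshold, when iP+A Dox replicate 1 was left out. Klf1 (1.33 ± 0.29), Itga2b (1.21 ± 0.24), Runx1 (1.20 ± 0.23), Tal1 (1.01 ± 0.21) and Alas2 (0.84 ± 0.31) had an adjusted p under 0.05 with differences below the fold threshold. Hba-x (0.67 ± 0.40), Spi1 (0.18 ± 0.18), Hbb-bh1 (0.04 ± 0.38) and Gata2 (-0.23 ± 0.17) had adjusted p-values from 0.204 to 0.952. The 95% interval of the difference of Hbb-bh1 ran from -0.75 to 0.83, so a shift of the size seen in Gata1 lay outside it.

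These p-values rest on the spread between replicates of a line, while the factor is carried by few lines. The Dox effects of the 4 lines with Gfi1 and the 3 without overlapped in 9 of the 10 members, Gata1 included, since iPou4f3 (0.00) lay above iG+A (-1.15) and iGPA (-0.50). Itga2b, on the minus strand of chr11:102314611-102331436, was the exception, from -0.44 to 0.90 with Gfi1 and from -1.40 to -0.71 without. Over all genes, the 4 lines with Gfi1 lay entirely above the other 3 in 9.3%.

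The lines were also compared as pairs with the same partner factors. Averaged over the 3 matched pairs (iG+A against iAtoh1, iG+P against iPou4f3, iGPA against iP+A), 0 of 10 members were called higher, against 4.84% of all genes, with Gata1 the highest at 1.34 ± 0.23 (adjusted p = 0.000219). At an unadjusted p under 0.05, 5 members differed. Itga2b was 0.95 ± 0.26, Tal1 0.88 ± 0.23, Klf1 0.84 ± 0.31 and Runx1 0.71 ± 0.25 higher, each with an adjusted p under 0.05, and Hba-x was at 0.00 ± 0.42. Alas2, at 0.84 over 4 lines against 3, was at 0.30 ± 0.33 over the pairs (limma, adjusted p = 0.53), and Hbb-bh1 was at -0.82 ± 0.40 (adjusted p = 0.127). Pair by pair, Gata1 was the 1 member called for Atoh1 (1.53 ± 0.41, against 4.44% of all genes higher), and 0 were called higher for Pou4f3 or for Pou4f3 and Atoh1, against 3.43% and 4.76%, with 2 and 4 at an unadjusted p under 0.05, of which Gata2 (-0.88 ± 0.31) and Hbb-bh1 in the last pair were lower. The difference of Gata1 was 1.41 ± 0.41 for Pou4f3 and 1.06 ± 0.41 for both. Leaving out 1 library moved Gata1 across the threshold in each pair: it was 1.39, 1.35 and 1.35 for Atoh1 without iAtoh1 No Dox replicate 2, iG+A No Dox replicate 2 or iG+A Dox replicate 2, and 1.64, 1.58 and 1.66 for Pou4f3 without iPou4f3 No Dox replicate 2, iG+P No Dox replicate 2 or iG+P Dox replicate 1. For Pou4f3 and Atoh1 it was called at 1.52 without iP+A Dox replicate 2. Hbb-bh1 went the other way in that pair, at -1.79 ± 0.70 (adjusted p = 0.0814), and passed with replicates of a line as a block (adjusted p = 0.00255) or without iP+A Dox replicate 1 (-2.44). For Atoh1, Tal1 was called at 1.57 without iAtoh1 Dox replicate 2, and Itga2b at 1.67 without the same library and at 1.59 without iG+A Dox replicate 1.

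Levels in the sorted cells were also compared without the controls, between the same sets of lines, which are not balanced for Atoh1 and Pou4f3. No matched version of this comparison was run. Gata1 ran from 1895 to 7040 in the 8 Dox libraries with Gfi1 and from 341 to 5010 in the 6 without, and was 1.97 ± 0.15 higher (adjusted p = 7.09e-09). Klf1 was 1.64 ± 0.21 higher, which made 2 of 10 members called higher against 3.43% of all genes. Runx1 (1.48 ± 0.17), Tal1 (1.42 ± 0.15) and Itga2b (1.38 ± 0.17) lay just below the fold threshold. Alas2 was 1.08 ± 0.22 and Hba-x 0.76 ± 0.28 higher, both with an adjusted p under 0.05, and Hbb-bh1 was at 0.20 ± 0.27. Without iP+A Dox replicate 1 Klf1 was at 1.49, and without iP+A Dox replicate 2 Runx1 (1.65), Itga2b (1.55) and Tal1 (1.51) were called as well. Runx1 was also called with quantile normalization (1.52), with 75th percentile scaling (1.5006), and without iAtoh1 Dox replicate 1 (1.54), iPou4f3 Dox replicate 2 (1.53), iG+A Dox replicate 1 (1.5001), iG+P Dox replicate 1 (1.58) or iGPA Dox replicate 1 (1.56), and Tal1 without iAtoh1 Dox replicate 2 (1.56).

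**Figure D3:**
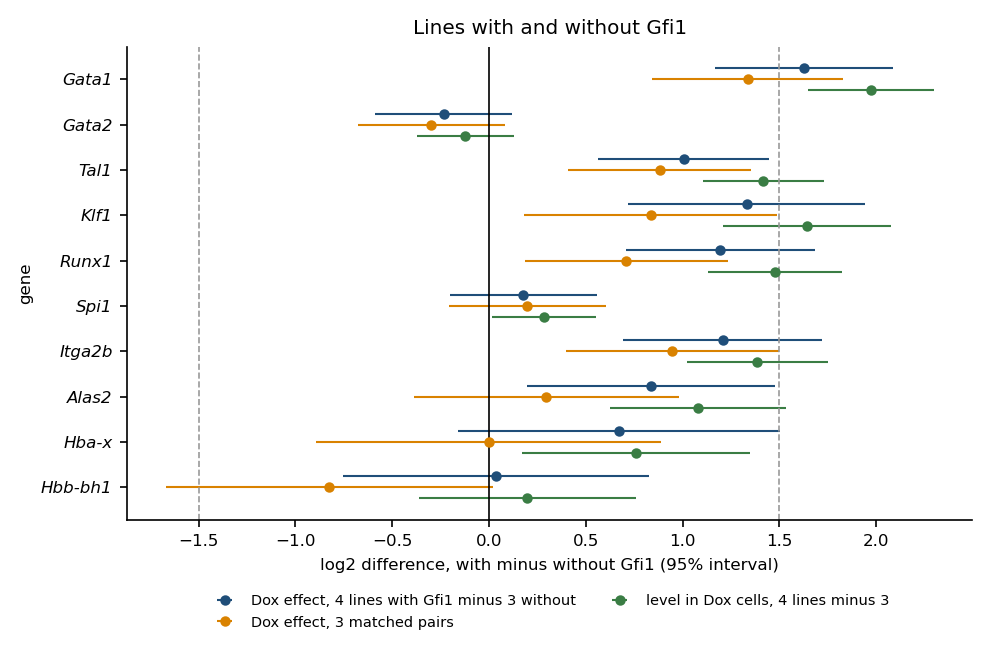
Log2 difference between lines with and without Gfi1 for the 10 genes, with 95% intervals from the limma fit: Dox effect of 4 lines against 3 (blue), Dox effect over the 3 matched pairs (orange) and level in Dox-treated cells (green); dashed lines mark the fold threshold of 1.5. Gata1 is the highest on all 3 scales, at 1.63, 1.34 and 1.97, and Gata2 and Hbb-bh1 are near 0 or below on the first 2.

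The 4 lines with Atoh1 and the 3 without were also compared, and these sets are not balanced for Gfi1 and Pou4f3 either. This comparison was added after the values by line were seen, so it is a description of the pattern and its calls are no independent support. In the 4 lines with Atoh1 against the 3 without, 6 of 10 members were called lower, against 1.59% of all genes: Alas2 (-2.84 ± 0.31), Hbb-bh1 (-2.84 ± 0.38), Klf1 (-2.82 ± 0.29), Hba-x (-2.76 ± 0.40), Gata1 (-2.31 ± 0.22) and Runx1 (-2.25 ± 0.23). In the same 6 members all 4 lines with Atoh1 lay below all 3 without, as did 8.05% of all genes. The mean Dox effect on Hba-x was -3.23 with Atoh1 and -0.47 without, and on Klf1 -2.03 and 0.80. Tal1 (-1.08 ± 0.21) and Itga2b (-0.87 ± 0.24) had an adjusted p under 0.05 and differences below the fold threshold. Gata2 (0.08 ± 0.17) and Spi1 (-0.11 ± 0.18) differed by neither Atoh1 nor Gfi1 past the threshold. In the same contrast 2 of 6 cardiac markers (median 1.55) and 1 of 11 endothelial markers were called higher, and 2 of 7 fibroblast markers lower and 1 higher, and their part in the result was not tested.

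The 10 members thus did not move as a block, and the distance between the globins and Gata1 was a case of it. Within a library the ratio of 2 genes does not depend on scaling to depth; a log2 ratio of globin to Gata1 also carries the lengths of both transcripts, so only its change with Dox is read here. These ratios were chosen after the values were seen and carry no test. Hba-x over Gata1 was 4.71 and 4.77 in the iG+A controls and 2.59 and 2.47 with Dox. It was 2.79 and 3.70 in the iG+P controls and 0.54 and 1.52 with Dox, and 4.15 and 4.46 against 1.47 and 1.87 in iGPA. The mean change was -2.21 in iG+A, -2.22 in iG+P and -2.64 in iGPA, the 3 lines in which Gfi1 was joined to another factor. In the 4 other lines it was smaller, at -1.17 in iAtoh1, -0.86 in iPou4f3, -1.02 in iP+A and -0.82 in iGfi1. Hbb-bh1 over Gata1 divided the lines the same way, with changes of -2.29 in iG+A, -3.00 in iG+P and -3.93 in iGPA and of -0.77 to -1.08 in the others. Alas2 over Gata1 changed by -1.86, -0.72 and -1.31 in those 3 lines and by -0.34 to -0.19 in the others. Klf1 over Gata1 changed by -0.65 in iG+A, -0.29 in iG+P and -1.05 in iGPA and by -0.28 in iP+A, -0.23 in iAtoh1, 0.02 in iPou4f3 and 0.17 in iGfi1, so iG+P and iP+A were nearly alike.

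**Figure D4:**
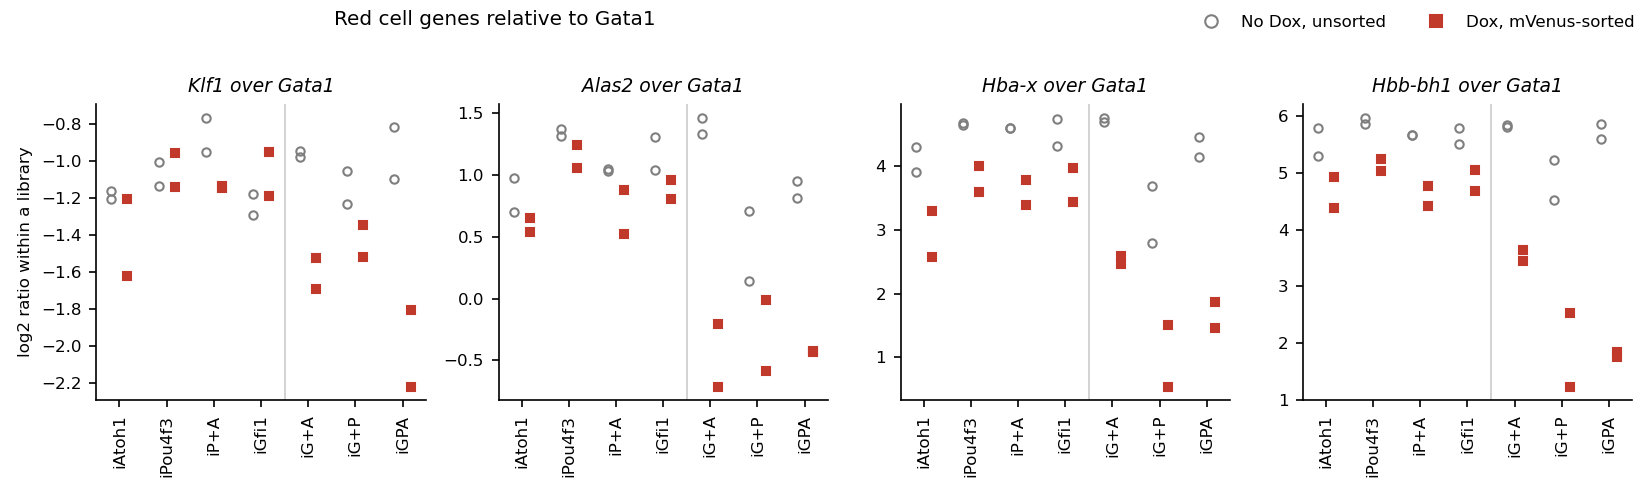
Log2 ratio of Klf1, Alas2, Hba-x and Hbb-bh1 to Gata1 within each library, by line, with untreated EBs as open circles and Dox-treated sorted cells as filled squares; lines right of the grey bar induce Gfi1 with another factor. Right of the bar the Dox squares of Hba-x sit 2.21 to 2.64 below the circles on average, against 0.82 to 1.17 left of it.

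Over the 28 libraries, Gata1 correlated with Klf1 by r = 0.97, with Runx1 by 0.96 and with Hba-x by 0.74, and the globins with each other by 0.98, on the log2 scale. Gata2 stood apart from the members, at -0.10 with Gata1 and -0.50 with Hbb-bh1. These are descriptions over libraries that share lines and treatment. The genes outside the members most like Gata1 were Tspan33, Slc30a10 and Epb42, a protein of the red cell membrane skeleton (r = 0.98 for each). Among the genes most like Klf1 were Abcb10 and Trim10, and among those most like Alas2 were Blvrb and Smox (0.98 for each). For Hba-x they included Add2 and Spns2 (0.96 for each), and for Hbb-bh1 they were Hsd3b1, Tnfaip8 and Dapp1 (0.96 for each). Tal1 was most like Slc6a9 (0.96), Grap2 and Zfpm1, a cofactor of Gata factors, Runx1 like Car2 (0.96), Abca2 and Prkar2b, and Itga2b like Unc13d, Fermt3 and P2rx1 (0.94 to 0.95). Gata2 was most like Tmem120b (0.84) and the neuronal factors Pou4f1 and Myt1 (0.83 for each). Spi1 had the loosest neighbours, S1pr4 (0.74), Vav1 and Rab22a.

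Spi1, at chr2:90922547-90955913 (listed there under its older symbol Sfpi1), was low, from 155 to 503 normalised counts over the 28 libraries, and was not called in any line. Its largest difference was that of iG+A, from 503 and 402 to 192 and 248. The surface gene Ptprc (CD45), which marks most mature white cells, lay between 0 and 28.0 in every library, and its call in iG+A (-3.40 ± 0.81) rests on these low values.

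The wider red cell list, 23 genes written from general knowledge of which 19 could be tested, had its greatest number of calls in iAtoh1. With Dox 15 of 19 were called lower in iAtoh1 and 0 higher, against 2.52% and 2.89% of all genes, with a median of -2.42 where that of all genes was -0.01. The falls of Hbb-y, an embryonic beta-type globin (3.88 ± 0.79), Hba-a2, an adult alpha globin (3.35 ± 0.47), and Hemgn (3.17 ± 0.44) were among the greatest. In iP+A 6 were lower, in iG+A 9 and in iGPA 6 (2.58%, 4.95% and 5.31% of all genes), with 0 higher in each and medians of -1.04, -1.49 and -0.86. In iPou4f3 0 were called either way by limma, with 2 at an unadjusted p under 0.05. In iGfi1 2 were higher (2.15% of all genes), Rhag (2.05 ± 0.53) and Ermap (1.87 ± 0.45), both of the red cell surface, and 0 lower, with a median of 1.25. In iG+P 5 were higher (5.16% of all genes), among them Cldn13 (2.08 ± 0.46), Slc4a1, the anion exchanger of red cells (1.72 ± 0.59), and the mitochondrial iron carrier Slc25a37 (1.72 ± 0.29), while Hbb-y was lower (-2.32 ± 0.79), so the list (median 0.94) lay on the side of Klf1 and not of Hbb-bh1 in this line. Between lines with and without Gfi1 5 were higher (3.88% of all genes) and 0 lower, led by Hemgn (1.90 ± 0.34). Over the matched pairs 0 of the 19 were called by limma, with a median of 0.53 in place of 0.98 and 10 at an unadjusted p under 0.05. Some globin genes, such as the adult alpha genes, have near-identical copies, and how the pseudo-alignment shared reads between such copies is uncertain.

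Of 8 haem synthesis enzymes, Cpox (-1.90 ± 0.26) and Uros (-1.72 ± 0.29) were lower in iAtoh1, Cpox (-1.56 ± 0.26) and Alad (-1.56 ± 0.24) in iG+A and Alad (-2.06 ± 0.24) in iGPA, and Uros was higher in iG+P (1.58 ± 0.29). In iPou4f3, iP+A and iGfi1 0 were called in either direction by limma, with 0, 4 and 7 at an unadjusted p under 0.05. Of all genes 2.52% were lower in iAtoh1, 4.95% in iG+A and 5.31% in iGPA, and 5.16% were higher in iG+P. Nothing is read from a count of 1 gene in this list.

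Among 18 progenitor regulators and surface genes, 0 were called higher and 4 lower in iAtoh1, 1 and 1 in iP+A, 2 and 1 in iGfi1, 2 and 2 in iG+A, 1 and 3 in iG+P and 2 and 1 in iGPA. In iPou4f3 0 were called by limma, with 4 at an unadjusted p under 0.05. The shares of all genes called were 1.47% to 8.65% higher and 0.606% to 5.36% lower over the 7 lines, so nothing is read from a count of 1 gene in a list of this length, here and in the lists that follow. Lmo2, the bridging protein of the Tal1 and Gata complex, went from 2421 and 2338 to 8024 and 17719 in iG+A, and rose in all 4 lines with Gfi1, by 1.88 ± 0.29 in iGfi1 to 2.32 ± 0.29 in iG+A. Between lines with and without Gfi1 it was 2.37 ± 0.22 higher (adjusted p = 2e-07), above any member. Etv2, which starts the blood and endothelial programme in mesoderm, rose from 178 and 341 to 1464 and 3322 in iG+A (3.16 ± 0.39) and by 3.74 ± 0.39 in iGPA. Gfi1b, the Gfi1 relative that acts in red cells and megakaryocytes, fell in iAtoh1 (2.77 ± 0.32), iP+A (1.69 ± 0.32), iG+A (3.23 ± 0.32) and iGPA (2.20 ± 0.32). Ikzf1 was lower in iAtoh1 (-2.66 ± 0.25) and higher in iGfi1 (1.55 ± 0.25). Mecom, a factor of blood stem cells, was lower in iGfi1 (-2.16 ± 0.19) and iG+P (-1.62 ± 0.19), where Erg (-1.97 ± 0.31) and Meis1 (-1.57 ± 0.24) fell too. Of the list, 3 of 18 were called higher between lines with and without Gfi1 and 0 lower, against 3.88% and 2.96% of all genes.

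Some megakaryocyte and platelet genes were called lower in 6 of the 7 lines, while Itga2b passed the threshold in none. Of 16 tested, 10 were called lower in iAtoh1, 6 in iPou4f3, 8 in iP+A, 6 in iG+A, 2 in iG+P and 7 in iGPA, and 0 in iGfi1, and 0 were higher in iAtoh1, iPou4f3 and iP+A, 3 in iG+A and 1 each in iG+P, iGPA and iGfi1. The medians ran from -2.07 in iAtoh1 to -0.01 in iGfi1, with all-gene medians near 0. Of all genes 2.52% were lower in iAtoh1, 0.606% in iPou4f3, 2.58% in iP+A, 4.95% in iG+A and 5.31% in iGPA. The 2 lower calls of iG+P stand against 5.36% of all genes lower there, and the 3 higher calls of iG+A against 7.35% higher. Tubb1, the platelet tubulin, was lower in iAtoh1 (-3.05 ± 0.45), iP+A (-2.94 ± 0.45), iG+A (-2.85 ± 0.45) and iGPA (-2.82 ± 0.45). Between lines with and without Gfi1, Clec1b (2.80 ± 0.47), Gp9 (2.62 ± 0.42), Vwf (2.61 ± 0.31) and Pf4 (2.54 ± 0.72) were called higher, against 3.88% of all genes. Vwf, also made by endothelium, was 1359 and 1844 with Dox in iG+A and 516 and 411 without. Pf4 lay at 0 to 56.0 normalised counts in the Dox libraries, so its difference rests on low values.

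Of 16 myeloid genes tested, 0 to 3 were called higher and 1 to 4 lower in each line. Between lines with and without Gfi1, 1 was called lower, Prtn3 (-1.78 ± 0.26), and 0 higher. C1qb, a complement chain made by macrophages, rose in the 4 lines with Pou4f3, by 5.44 ± 0.67 in iPou4f3, 5.02 ± 0.67 in iP+A, 6.81 ± 0.67 in iG+P and 6.15 ± 0.67 in iGPA, and by 2.19 ± 0.67 in iG+A. Its levels were 32.6 to 199 normalised counts with Dox in the lines with Pou4f3 and 8.51 or lower in every other library. C1qa and C1qc, which encode the other chains of the same complement protein, did not pass the filter on low values. Mpo, a granule enzyme of granulocyte precursors, was lower in iAtoh1 (-1.75 ± 0.47), iP+A (-1.61 ± 0.47), iG+A (-3.51 ± 0.47), iGPA (-3.02 ± 0.47) and iG+P (-1.63 ± 0.47).

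**Figure D5:**
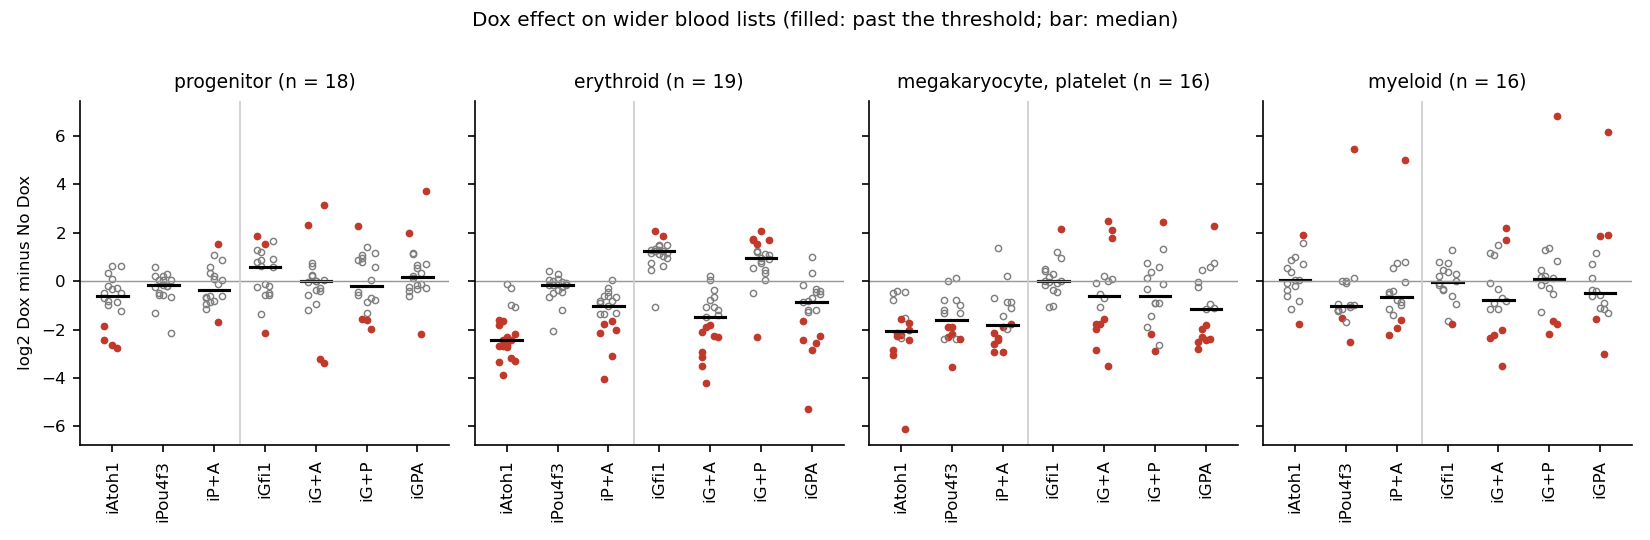
Log2 difference, Dox minus No Dox, of the genes of 4 wider blood lists in the 7 lines; each circle is a gene, filled red where it is past the threshold, black bars are medians, and lines right of the grey bar carry Gfi1. The erythroid medians run from -2.42 in iAtoh1 to 1.25 in iGfi1.

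Markers of other cell types moved with the comparison of lines with and without Gfi1, and their part in the results was not tested. Of all genes, 3.88% were called higher and 2.96% lower in this comparison. Of 7 fibroblast markers 3 were lower, Lum, Col1a2 and Col1a1, and the summed level of the 7 ran from 5308 to 40286 in the 8 Dox libraries with Gfi1 and from 19840 to 114709 in the 6 without. Untreated, the sums ran from 49490 to 152459 and from 44655 to 159960. Of 11 endothelial markers 1 was higher, Flt1, with sums from 11054 to 46342 with Gfi1 and from 14466 to 22101 without. Of 6 early mesoderm markers 2 were higher, Eomes (3.14 ± 1.07) and Mesp1 (2.99 ± 1.02), with sums from 2568 to 6339 and from 5817 to 8315. Pdgfra of the same list went the other way, at -1.46 ± 0.21, under the fold threshold with an adjusted p under 0.05. Of 6 cardiac markers 2 were lower, Hand1 (-3.67 ± 0.25) and Nkx2-5 (-2.63 ± 0.63), and 1 was higher, Actc1 (1.64 ± 0.50), with sums from 4625 to 9925 with Gfi1 and from 25687 to 51375 without, so that the sorted cells of the 2 sets of lines did not overlap. Untreated, the cardiac sums ran from 16154 to 48579 and from 20067 to 43550. Of 8 endoderm markers tested 0 were called, with sums over all 9 listed from 3348 to 5539 with Gfi1 and from 4988 to 12254 without. Of 5 pluripotency markers 0 were called, but in untreated EBs all 5 were lower in lines with Gfi1 at an unadjusted p under 0.05, with sums from 742 to 4436 against 2787 to 18496 and differences from -1.35 to -0.96 that did not pass adjustment. No marker of these 6 lists was at 0 in all libraries of a set. Over the 3 matched pairs, 4 of 7 fibroblast markers and 1 of 8 endoderm markers were called lower, against 3.07% of all genes. Of 11 endothelial and 6 early mesoderm markers 2 each were higher, against 4.84% of all genes. Of 6 cardiac markers 2 were lower and 1 higher over the pairs, and the part of these markers was not tested either.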

How the data were processed

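RNA was measured in 28 libraries (KAPA mRNA kit), 2 in each of 14 groups. As the authors describe, reads were trimmed with cutadapt, pseudo-aligned with Kallisto to the UCSC mm9 transcripts, summed to genes with tximport and normalized with DESeq2 (versions are not given in the sources used here). The deposited values are log2 of these normalised counts plus 1, which the authors scaled to library depth and not to gene length, so levels are compared within a gene. The table held 19421 genes by Entrez ID, of which 19314 were named from RefSeq; 0 columns were left unassigned.

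Values were taken back to the linear scale, and genes with at least 10 in at least 2 libraries were kept (16837 genes, all 10 members). Differences on log2(value + 1) were tested with limma 3.58.1 (limma-trend, R 4.3.3) in 1 fit of all 14 groups (14 residual degrees of freedom), and p-values were adjusted by Benjamini-Hochberg over all genes kept. Lines with and without Gfi1 were compared as the difference of their mean Dox effects. The pseudocount understates changes of low genes. Named genes were the members, the called list genes with the largest differences, at most 4 a list and comparison, and the 3 genes most like each member; a few that this rule names are not reported here. The members and lists were chosen with earlier results of these data known. Spi1 is Sfpi1 in the mm9 annotation. Estimated reads per library were 30.3 to 48 M; 71.3 to 79.4% of low values came out as whole reads within 0.05, so counts were not recovered and no count model was run. The fit was also run on simulated data with changes larger than the fold threshold, which says nothing about differences near that threshold.

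Replicates are clones of a line by the series' design text. The deviations of same-numbered Dox and No Dox libraries correlated by 0.238 in iAtoh1, 0.231 in iPou4f3, 0.246 in iP+A, 0.127 in iGfi1, 0.158 in iG+A, 0.103 in iG+P and 0.152 in iGPA, all above 0.1, so the numbers were taken to pair the libraries; whether equal numbers mark the same clone is not given. Of the 10 members, 8 or 9 deviated in the same direction in 5 lines, 5 in iPou4f3 and 1 in iG+A. The fit reported here did not use the pairing by number, which entered as a replicate block among the alternatives. P-values measure the spread between clones of the same line. Alternatives were other pseudocounts, filters, scalings, thresholds and control groups, a replicate block, and leaving out each library.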

Additional observations from a re-analysis of the deposited data

Results flagged for a closer look

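Some differences between lines were set apart because the contrast of Dox effects between 2 sets of lines passed the threshold itself. The sets of 4 and 3 lines were not balanced for the other factors. For Gfi1, the Dox effect on Gata1 was 1.63 higher on the log2 scale in the 4 lines with Gfi1 than in the 3 without, and 1.53 higher in iG+A than in iAtoh1; it was 1.47 and 1.35, under the threshold, at the lowest when 1 library was left out. For Atoh1, a comparison chosen after the values were seen, the Dox effects were lower in the 4 lines with Atoh1 by -2.31 for Gata1, -2.82 for Klf1, -2.25 for Runx1, -2.84 for Alas2, -2.76 for Hba-x and -2.84 for Hbb-bh1. No group had the 4 libraries that a test for a single outlying library needs.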

How the results depend on the processing

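Of 3110 recomputed values, 90 had another sign than the value reported, and none of those had an adjusted p under 0.05 as reported. In 2939 the side of the threshold was kept, 25 lost a call and 56 gained one. Leaving out 1 library each gave 0 to 1 members higher for lines with against without Gfi1, 0 to 3 for Gfi1 added to Atoh1, 0 to 1 added to Pou4f3, 0 to 1 higher and 0 to 1 lower added to both, 1 to 5 for levels with Dox, 0 to 1 higher and 2 to 7 lower in iP+A, 0 to 1 higher in iGfi1, 0 to 1 higher and 0 to 1 lower in iG+P, and 2 to 4 lower in iGPA. With a fold threshold of 1 on the log2 scale the higher counts were 4 in iGfi1, 3 in iG+P, 5 for Gfi1, 1 for Gfi1 added to Pou4f3, 1 over the matched pairs and 6 for Dox levels. Lower calls were gained at that threshold too. They were Tal1 (-1.33) and Itga2b (-1.40) in iAtoh1, and Runx1 (-1.40) and Itga2b (-1.15) in iP+A. In iG+A they were Gata1 (-1.15) and Spi1 (-1.04), and by Atoh1 Tal1 (-1.08). Quantile normalization left 0 lower in iG+P, as did a fit of the 2 groups alone. All untreated libraries as 1 control gave 0 higher in iP+A and iGfi1, 2 lower in iG+P and 2 lower in iGPA. The replicate block gave 1 lower for Gfi1 added to Pou4f3 and Atoh1 (Hbb-bh1) and changed no other call. The causes were not tested.

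Signs changed for small differences. Quantile normalization gave -0.21 for Spi1 in iGPA, -0.058 for Gata2 with Gfi1 added to Atoh1, 0.022 for Gata2 and -0.21 for Hba-x with Gfi1 added to Pou4f3, and 0.052 for Hba-x over the matched pairs. The 75th percentile scaling gave -0.0070 for Gata1 in iPou4f3, 0.0095 for Gata2 with Gfi1 added to Pou4f3 and 0.031 for Hba-x over the pairs. Against 1 control group of all untreated libraries the values were 0.78 for Alas2, 0.14 for Hba-x and 0.19 for Hbb-bh1 in iPou4f3, -1.16 for Tal1 in iP+A (limma, adjusted p = 0.0228), 0.46 for Tal1 and 0.56 for Itga2b in iG+A, -0.70 for Itga2b and -0.34 for Alas2 in iG+P, and 0.030 for Gata1 and 0.12 for Itga2b in iGPA.

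Leaving out 1 library moved these across 0. In single lines the ranges were -0.19 to 0.52 for Gata2 in iAtoh1; -0.22 to 0.23 for Gata1, -0.27 to 0.31 for Klf1 and -0.44 to 0.060 for Alas2 in iPou4f3; -0.25 to 0.34 for Tal1 in iP+A; -0.26 to 0.78 for Hba-x and -0.14 to 0.74 for Hbb-bh1 in iGfi1; -0.35 to 0.19 for Itga2b in iG+A; -0.46 to 0.24 for Spi1 and -0.12 to 0.32 for Itga2b in iG+P; and -0.24 to 0.35 for Spi1 and -0.90 to 0.0081 for Itga2b in iGPA. With Gfi1 added to Atoh1 they were -0.35 to 0.36 for Gata2, -0.33 to 0.17 for Alas2 and -0.11 to 0.38 for Hbb-bh1, and added to Pou4f3 -0.21 to 0.17 for Gata2, -0.67 to 0.79 for Hba-x and -1.71 to 0.080 for Hbb-bh1. Added to both they were -0.28 to 0.85 for Klf1, -0.11 to 0.93 for Runx1, -0.56 to 0.73 for Alas2 and -1.22 to 0.10 for Hba-x, and over the pairs -0.25 to 0.24 for Hba-x. Between the sets of lines they were -0.19 to 0.26 for Hbb-bh1 by Gfi1, -0.025 to 0.42 for Hbb-bh1 in Dox levels, -0.0055 to 0.23 for Gata2 and -0.066 to 0.25 for Hba-x untreated, and -0.011 to 0.17 for Gata2 and -0.23 to 0.0069 for Spi1 by Atoh1. With 2 libraries a group, a lone library left is assumed to vary like the other groups.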
